A study of Mus musculus with 3 samples.

Results

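Receptors for peptide hormones that control fluid secretion were examined in the choroid plexus epithelium (CPE) of the mouse. The set comprised 10 genes: the vasopressin receptor Avpr1a, the natriuretic peptide receptors Npr1, Npr2 and Npr3, the endothelin receptors Ednra and Ednrb, the PACAP and VIP receptors Adcyap1r1, Vipr1 and Vipr2, and the corticotropin-releasing factor receptor Crhr2. Every probe that carried one of these gene names on the array was used, which gave 20 probes of 41174 in all, for 10 of the 28599 genes or transcripts on the array. Of the members, 4 genes had a single probe (Avpr1a, Npr1, Vipr1 and Crhr2), Ednra had 4, and the others had 2 or 3.

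The CPE of 3 healthy female C57BL/6 mice, aged 18 to 21 weeks, was laser dissected from the lateral ventricles. Its RNA was amplified and labelled with the red dye Cy5. Each sample was hybridised to a mouse whole-genome Agilent array together with a common reference, RNA from the choroid and the retinal pigment epithelium (RPE) of eyes of C57BL/6 mice, which carried the green dye Cy3. The 3 arrays form 1 group, the dyes were not swapped, and the reference was 1 RNA, so a dye bias of a probe and the biological spread of the reference are not part of the errors given here.

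The CPE secretes the cerebrospinal fluid. It drives ions across the cell and water follows, and hormones from the blood or from the epithelium itself change the rate through receptors on its surface. Vasopressin and endothelin receptors can act through the G protein Gq, phospholipase C and calcium. The receptors for VIP, PACAP and the urocortins act mainly through Gs and cyclic AMP. Npr1 and Npr2 are themselves enzymes that make cyclic GMP, whereas Npr3 lacks the cyclase and is known for removing natriuretic peptides from the fluid around the cell.

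The arrays differed in signal over background. Between 46.0% and 85.6% of all probes were well above background in the CPE channel, a flag set by the scanner software, and between 68.6% and 84.2% were so in the reference channel. The array of mouse 3 gave the highest share in both channels and also had the brightest background surface, with a median of 363 in the CPE channel against 81.2 and 82.6 for mice 1 and 2. The background levels given for single probes below are those of the scanner software. The ratios were instead corrected with the local background. Its medians in mice 1, 2 and 3 were 57, 56 and 58 in the CPE channel and 49, 48 and 59 in the reference channel. The identity of the tissue was checked with markers: all 10 CPE markers matched on the array ranked in the high class, and 9 of them were higher in the CPE than in the reference, with Kl the highest at a log2 ratio of 5.42. Of 9 RPE and melanocyte markers, 8 were lower in the CPE. Tyr was well above background in no CPE sample, but the other 8 were so in the CPE of every mouse. Markers of other cells nevertheless gave signal in the CPE channel. There 8 of 8 endothelial, 8 of 8 smooth muscle and pericyte, and 6 of 6 stromal markers were well above background in every mouse. The high class held 4 of 8 endothelial, 3 of 8 smooth muscle and pericyte, and 5 of 6 stromal markers. This class was thus not particular to CPE markers. Photoreceptor markers were lower for 6 of 6 genes, neuronal markers for 4 of 6 and macrophage markers for 3 of 5, and of 4 astrocyte markers 1 was higher and 1 lower. Even so, 6 of 6 photoreceptor, 5 of 6 neuronal, 5 of 5 macrophage and 4 of 4 astrocyte markers were well above background in the CPE of every mouse. In the CPE channel 2 of 9 RPE and melanocyte and 1 of 6 photoreceptor markers ranked in the high class. The source of the signal of eye markers in this channel was not tested. In these samples of many cells, fewer cells of a type and less RNA per cell cannot be told apart.

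Of the 20 receptor probes, 11 were well above background in the CPE of all mice and 2 were so in none. The reference passed on all arrays for 15 probes. A probe was tested where at least 1 channel was well above background on all arrays, and 16 of the 20 were tested. A probe was called at an adjusted p under 0.05 in limma and a change of at least 2-fold. A total of 2 probes were higher in the CPE (Crhr2 and 1 of Npr3), 1 was lower (Ednrb), and 13 were not called. The called share of the tested receptor probes was 18.8%, against 17.3% of all 25838 tested probes. Over all tested probes 7.09% were higher and 10.2% were lower, while among the receptor probes these shares were 12.5% and 6.25%. As a set, the receptors were thus called about as often as any probe on the array. With the log ratio of the scanner software in place of the normexp and loess values, 7 of the 16 tested receptor probes were called, 4 higher and 3 lower. Calls over the whole array rose there as well, to 6761 of 25838 from 4462. When limma tested each change against 2-fold and not against 0, Npr3 alone was called among the receptors, and 1413 of all 25838 tested probes were called. The median log2 ratio was 0.19 over the 16 tested receptor probes and -0.04 over all tested probes. With no filter on dim probes, it was 0.13 over all 20 receptor probes and 0.0038 over all 41174 probes.

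**Figure D1:**
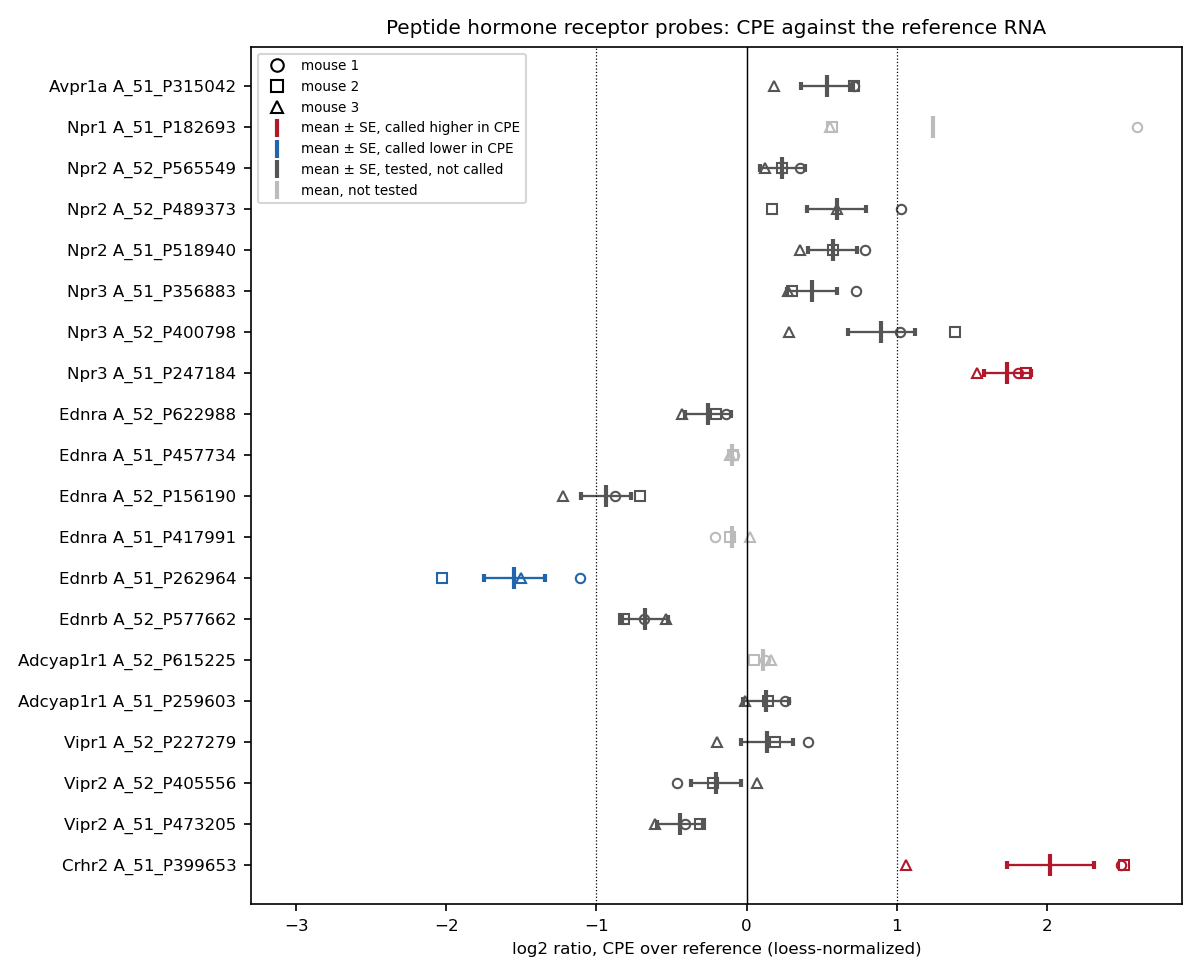
Log2 ratio of CPE over reference (horizontal axis) for each receptor probe (rows, ordered from 5′ to 3′ within a gene). Open symbols are the 3 mice, the thick tick is their mean, the bar is the standard error of limma for tested probes, and dotted lines mark a 2-fold change. Crhr2 and the last Npr3 probe lie above a log2 ratio of 1 in every mouse, and the first Ednrb probe lies below -1 in every mouse.

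Crhr2 had the highest ratio among the tested receptor probes. Crhr2 binds urocortins and couples to Gs. Its probe (mm8, chr6:55019677-55019736) had a mean red intensity of 2127, 1550 and 2382 in the CPE of mice 1, 2 and 3. The green intensity of the reference on the same spots was 246, 264 and 668. The CPE was thus brighter on all arrays, and the reference value of the third array was above that of the others, on an array where its background level was 222 against 94.9 and 92.8.

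The log2 ratio of Crhr2 was 2.49, 2.51 and 1.06 in the 3 mice, which gave a mean of 2.02 ± 0.29 (SE, n = 3), a 4.07-fold higher signal in the CPE (adjusted p = 0.00145). Mouse 3 was the lowest, but it was still above 2-fold. Tested against a 2-fold change, the adjusted p was 0.0694. Of all tested probes, 98.7% had a ratio at or below that of Crhr2. In the CPE itself the probe lay at percentiles 90.4, 91.8 and 90.9 of all probes, and at 91.2 for the mean level, so it stood just within the high class, which lies above percentile 90.

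Npr3, the clearance receptor of the natriuretic peptides, was the other receptor with a higher probe. Its 3 probes lie on the minus strand of chromosome 15. The probe nearest the 3′ end (mm8, chr15:11784907-11784966) had a CPE intensity of 6112, 4272 and 3587, and a reference intensity of 858, 846 and 752. The intensities of the CPE and the reference did not overlap. The log2 ratio was 1.81, 1.86 and 1.54, with a mean of 1.74 ± 0.16 (SE, n = 3), which is 3.33-fold (adjusted p = 0.000169). The spread between mice was smaller than for Crhr2, and the ratios of the mice for the 2 receptors overlapped. The probe ranked at percentile 96.0 in the CPE, the highest of all 20 receptor probes, and it was in the high class in every mouse.

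The other Npr3 probes gave smaller ratios. The middle probe (chr15:11789449-11789508) had log2 ratios of 1.02, 1.39 and 0.28, with a mean of 0.90 ± 0.22 (SE, n = 3; adjusted p = 0.0160). It was under 2-fold and was not called. The 5′-most probe (chr15:11789913-11789972) had ratios of 0.73, 0.30 and 0.28, with a mean of 0.44 ± 0.17 (adjusted p = 0.0731). All 3 probes were above 0 in every mouse, but in each mouse the 3′-most probe was higher than the 5′-most, with a log2 difference (5′ minus 3′) of -1.08, -1.56 and -1.26 in mice 1, 2 and 3, and the ranges of these 2 probes did not overlap. Another probe, annotated on the array by a cDNA clone whose product is Npr3 and therefore outside the naming rule (chr15:11847703-11847762), had ratios of 0.99, 0.80 and 0.23 and was not tested, as neither channel was well above background on all arrays.

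The promoters of the 2 receptors with a higher probe were read from RefSeq on build GRCm38.p6, and they are shown because these genes are the ones that were higher in the CPE. Capitals mark a TATAAA match.
Crhr2, minus strand, chr6:55132967-55133266: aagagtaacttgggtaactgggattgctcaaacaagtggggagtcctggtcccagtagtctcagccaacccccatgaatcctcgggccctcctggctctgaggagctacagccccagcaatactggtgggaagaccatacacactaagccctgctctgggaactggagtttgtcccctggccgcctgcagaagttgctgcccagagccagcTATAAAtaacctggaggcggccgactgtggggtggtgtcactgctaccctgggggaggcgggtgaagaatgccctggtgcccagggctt
Npr3, minus strand, chr15:11907322-11907621: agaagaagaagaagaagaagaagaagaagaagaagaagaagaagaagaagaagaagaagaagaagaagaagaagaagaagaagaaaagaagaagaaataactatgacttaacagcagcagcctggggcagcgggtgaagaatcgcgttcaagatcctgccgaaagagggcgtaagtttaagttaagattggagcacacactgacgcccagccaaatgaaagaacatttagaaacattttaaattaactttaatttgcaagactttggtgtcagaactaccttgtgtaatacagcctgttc
The Crhr2 window held 59.0% G and C and the Npr3 window 39.0%, against a median of 52.7% over 32851 promoters. All 10 receptors matched an entry. On either strand, TATAAA was found for Crhr2 and Avpr1a, and in 13.6% of all promoters. The letters TAATCC, a core bound by Otx homeobox factors, were found for Ednrb alone and in 7.06% of all promoters. The cyclic AMP response element TGACGTCA was found in 0 of the 10 and in 1.79% of all promoters. No receptor promoter held more than 1 of these motifs. These matches are a description of the letters only.

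Npr1 and Npr2 form cyclic GMP when bound by their peptides. Npr1 is the receptor of the atrial and B-type natriuretic peptides. Its 1 probe was designed across a genomic span of 494 bases on the minus strand of chromosome 3 (mm8, chr3:90541176-90541669). The CPE intensity was 317, 89.7 and 768 over background levels of 77.1, 75.9 and 322.5. Mice 1 and 3 were well above background and mouse 2 was not. The reference gave 84.4, 80.7 and 320 and passed on the array of mouse 3 alone, so the probe was not tested. Its log2 ratios of 2.60, 0.57 and 0.56 differed widely, since mouse 1 stood apart from mice 2 and 3. The mean of 1.24 rests on that mouse. Without mouse 2 the probe passed the filter, and the mean of 1.58 was then called (adjusted p = 0.00195). With no filter on dim probes and all 3 mice, the adjusted p was 0.0638.

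Npr2, the receptor of the C-type natriuretic peptide, was measured more firmly. Its 3′-most probe (chr4:43672118-43672177) had CPE intensities of 1642, 936 and 1780 and reference intensities of 544, 552 and 760. The log2 ratios of 0.79, 0.58 and 0.35 gave a mean of 0.57 ± 0.16 (SE, n = 3; adjusted p = 0.0255). All mice were above 0, but the change was 1.49-fold and was not called. The CPE percentile was 87.4, 87.1 and 87.5, the smallest spread among the receptor probes.

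The middle Npr2 probe (chr4:43669454-43669513) had ratios of 1.03, 0.17 and 0.60, with a mean of 0.60 ± 0.19 (adjusted p = 0.0430), and it was not called either. The 5′-most probe (genomic span chr4:43653899-43654631) had a mean of 0.24 ± 0.15 (adjusted p = 0.254), and its CPE signal did not pass background in mouse 2. The 3 probes thus had the same sign in every mouse. When each array was centred on its median instead of by loess, the log2 ratios of the 3′-most and middle probes were 1.11 and 1.08, and both were called (adjusted p = 0.0288 and 0.0344).

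**Figure D2:**
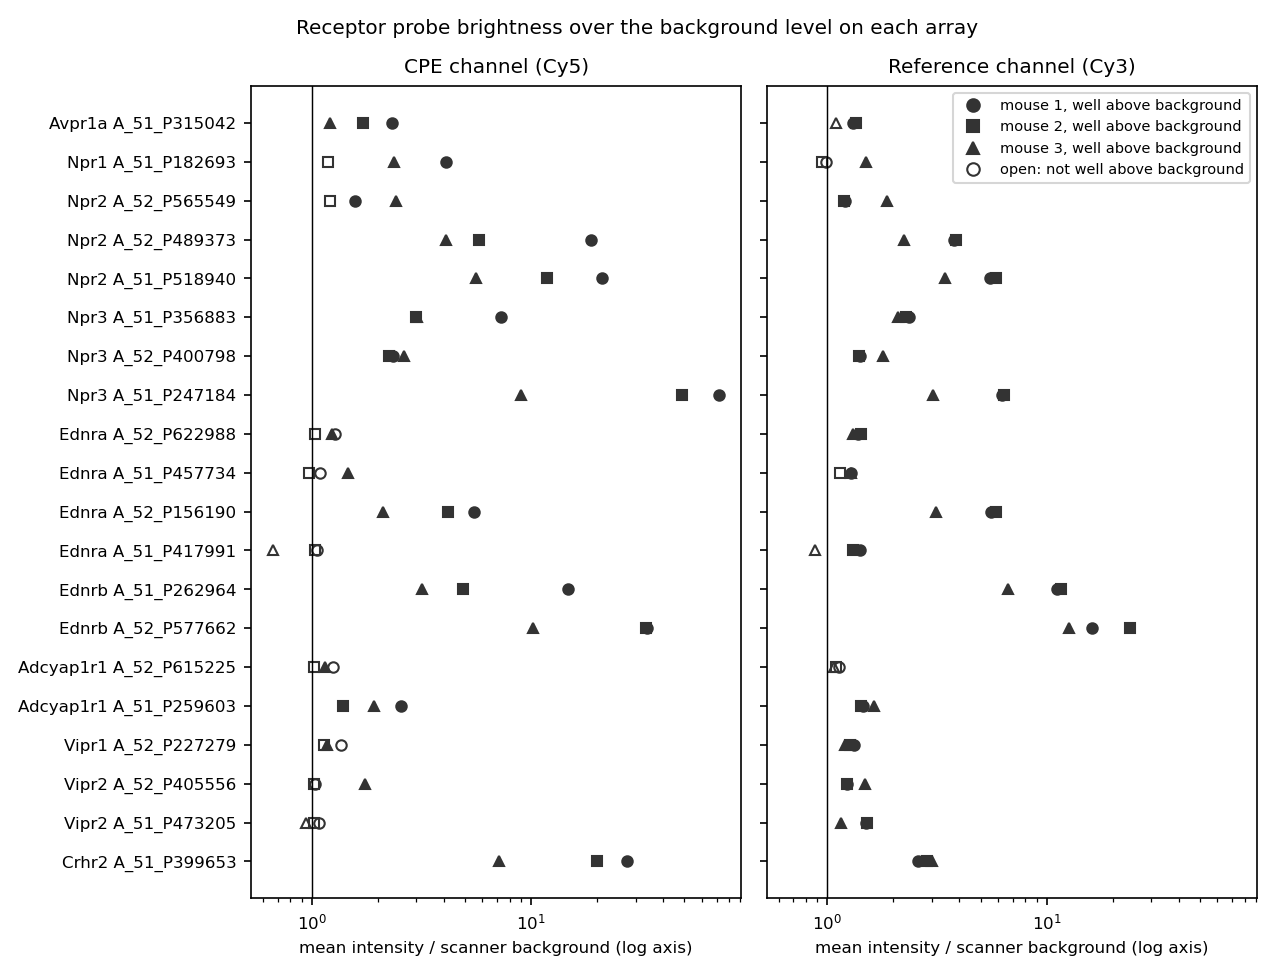
Mean intensity of each receptor probe divided by the background level the scanner software used for that spot (log axis), in the CPE channel (left) and the reference channel (right) of the 3 arrays. Filled symbols were well above background and open symbols were not. The last Npr3 probe is the furthest above background in the CPE of mice 1 and 2 and the 3′ Ednrb probe in that of mouse 3, while 2 probes, 1 of Ednra and 1 of Vipr2, have open symbols for all mice.

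The endothelin receptors lay on the other side of the reference. Ednrb, which binds all endothelins and is known from endothelium, astrocytes and cells of the melanocyte lineage, had 2 probes on the minus strand of chromosome 14. The 5′ probe (mm8, chr14:102702709-102702768) had CPE intensities of 1226, 419 and 1218 and reference intensities of 1385, 1416 and 1631. Its log2 ratios of -1.11, -2.03 and -1.50 gave a mean of -1.55 ± 0.20 (SE, n = 3), a 2.92-fold lower signal in the CPE (adjusted p = 0.000955). All mice were below 0 by more than 2-fold, and mouse 2 was the lowest. Only 4.70% of the tested probes had a ratio at or below it. The probe was nonetheless at percentile 81.6 in the CPE, in the moderate class.

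The 3′ Ednrb probe (chr14:102700946-102701005) was brighter. It gave CPE intensities of 2886, 2885 and 4204 and reference intensities of 2192, 3277 and 3227. The ratios of -0.68, -0.81 and -0.54 gave a mean of -0.68 ± 0.15 (adjusted p = 0.0108), under 2-fold and not called. This probe stood at percentile 94.5 in the CPE and was in the high class in every mouse. Both probes therefore had lower ratios in all mice after loess, but by different amounts: the 5′ probe was below the 3′ probe by a log2 difference of -0.43, -1.21 and -0.96. With median centring in place of loess, the 5′ probe had a ratio of -0.99 (adjusted p = 0.0528) and the 3′ probe one of 0.04, so the direction of the 3′ probe was not kept. Tested against a 2-fold change, the 5′ probe had an adjusted p of 0.187.

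The marker lists that include cells known to carry Ednrb did not share 1 direction. One list joins the RPE to the melanocyte lineage, so its sum is not that of melanocytes alone. The summed level of the 9 RPE and melanocyte markers was 5275 to 7437 in the CPE and 228910 to 243430 in the reference, where the melanin enzyme Dct was saturated on all 3 arrays. The summed level of the 8 endothelial markers was 11550 to 13291 in the CPE and 9455 to 10891 in the reference, with 2 of 8 higher in the CPE (Tie1 and Plvap) and 0 lower. The summed level of the 4 astrocyte markers was 3112 to 3659 in the CPE and 2791 to 2979 in the reference. The part of these cells in the Ednrb ratio was not tested.

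Ednra, the receptor best known from vascular smooth muscle, had 4 probes on the minus strand of chromosome 8 that did not behave alike. One of them (mm8, chr8:80559158-80559217) passed background everywhere, in either channel and on every array, with CPE intensities of 425, 326 and 704 and reference intensities of 513, 534 and 689. Its log2 ratios were -0.88, -0.71 and -1.22, with a mean of -0.94 ± 0.17 (SE, n = 3; adjusted p = 0.00398). It was 1.91-fold lower, just short of the 2-fold limit, and all mice were below 0. It ranked at percentile 70.3 in the CPE.

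The other Ednra probes were dim. The 5′-most (chr8:80565903-80565962) had a mean ratio of -0.26 ± 0.15 (adjusted p = 0.229) and passed background in the CPE of mouse 3 alone. The next (chr8:80563888-80563947) was not tested, with a mean of -0.10. The 3′-most (chr8:80556732-80556791) was also not tested, with a mean of -0.10. Its CPE signal passed background in no mouse, and it held the lowest percentile of the receptor probes, 2.63. Both the 5′-most and the 3′-most probe were designed on cDNA clones and not on the RefSeq transcript. The summed level of 8 smooth muscle and pericyte markers was 6454 to 15348 in the CPE and 19142 to 21423 in the reference. Of the 8, 2 were called lower and 0 higher. Acta2 had log2 ratios of -0.36, -3.21 and -0.37 in mice 1, 2 and 3 and was not called. Des (0.30), Pdgfrb (0.62) and Cspg4 (0.10) had positive mean ratios and were not called. The part of these markers in the Ednra ratio was not tested.

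**Figure D3:**
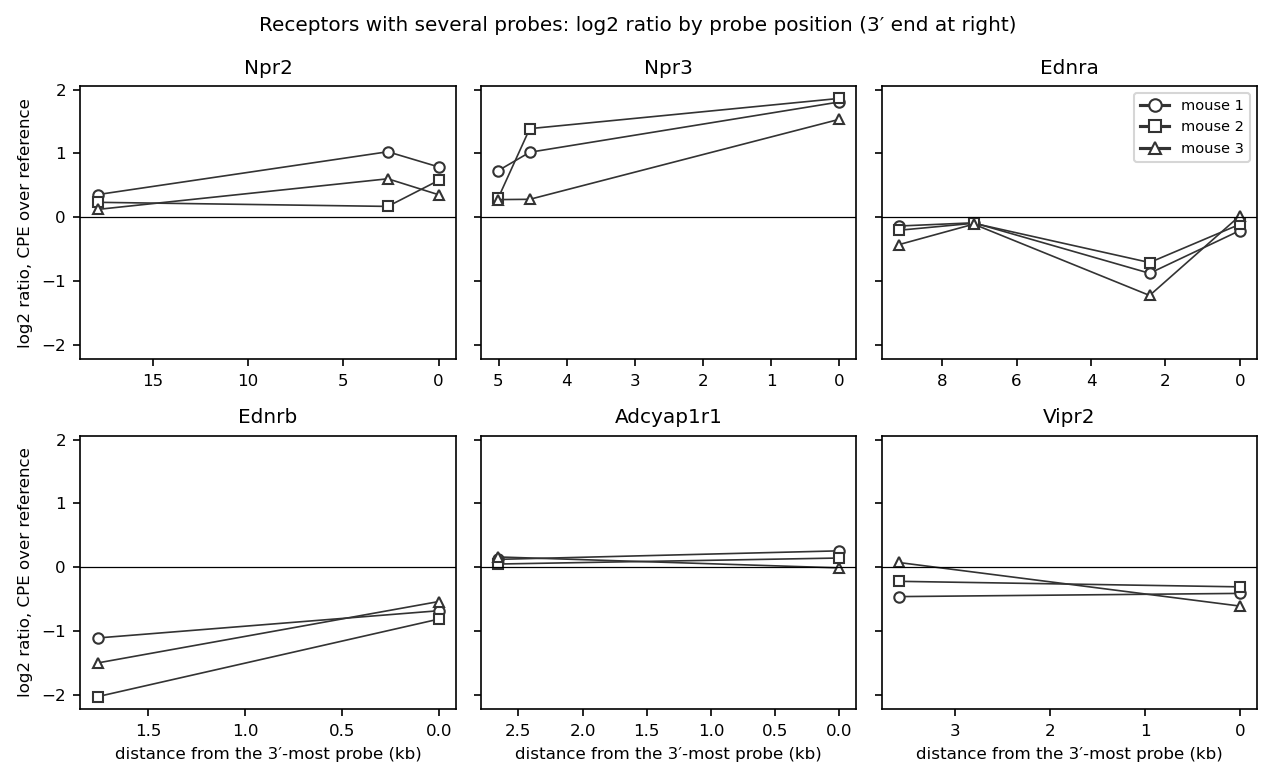
Log2 ratio of CPE over reference (vertical axis) by distance in kilobases on the genome from the 3′-most probe (horizontal axis, 3′ end at right), for the 6 receptors with several probes. Each line is 1 mouse. Npr3 rises toward the 3′ end in all mice, both Ednrb probes are below 0, and Ednra departs from 0 mainly at 1 probe.

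Because probes of 1 gene disagreed, the position of the probe was compared over the array. For Npr3, Ednrb and Npr2 the 5′-most probe had a lower ratio than the 3′-most in every mouse. For Npr2 the difference was -0.43, -0.34 and -0.23, and for Ednra it was 0.07, -0.09 and -0.45. Adcyap1r1 (-0.13, -0.09 and 0.17) and Vipr2 (-0.05, 0.09 and 0.68) had no direction shared by the mice. The 3′-most Ednra probe and the 5′ Adcyap1r1 probe in these differences were dim and not tested, unlike the probes of the array-wide set below. Over all 5076 genes with several tested probes, the median of the same difference was 0.09, -0.20 and 0.09 in mice 1, 2 and 3, and the probe nearer the 5′ end had the smaller ratio in 44.0%, 61.4% and 42.7% of genes. The quartiles over these genes were -0.34 and 0.52 in mouse 1, -0.75 and 0.26 in mouse 2, and -0.28 and 0.47 in mouse 3. The differences of Npr3 and Ednrb were below the lower quartile on each array. That of Npr2 was below it in mouse 1 alone and that of Ednra in mouse 3 alone, whereas those of Adcyap1r1 and Vipr2 were below it in none. The share of all genes below it on every array is not given here, so these positions cannot be read as an excess.

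Avpr1a, the V1a receptor of vasopressin, had a weak signal. Its probe (mm8, chr10:121856139-121856198) gave CPE intensities of 189, 142 and 453 over background levels of 81.5, 82.7 and 372.5, and it passed in all mice. The reference gave 149, 154 and 262. The log2 ratios of 0.71, 0.71 and 0.19 gave a mean of 0.54 ± 0.17 (SE, n = 3; adjusted p = 0.0420). All mice were above 0, but at 1.45-fold the probe was not called. Its CPE percentile was 58.4, 61.6 and 23.2, so it was moderate in mice 1 and 2 and low in mouse 3. Without mouse 1 or without mouse 2, its percentile of the mean fell to 46.9 or 46.3, in the low class.

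The receptors for PACAP and VIP were at or near background. Adcyap1r1, which prefers PACAP, had 2 probes on chromosome 6. The brighter (chr6:55430413-55430472) had CPE intensities of 215, 121 and 762 and passed background in all mice. Its log2 ratios of 0.26, 0.14 and -0.01 gave a mean of 0.13 ± 0.15 (adjusted p = 0.544), with no direction shared by the mice. The other Adcyap1r1 probe (chr6:55427755-55427814) passed background in the CPE of mouse 3 alone and on no reference array, and was not tested.

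Vipr1, the VPAC1 receptor, had 1 probe (chr9:121519210-121519269) with CPE intensities of 105, 88.2 and 393 and a ratio of 0.13 ± 0.17 (adjusted p = 0.579). Only mouse 3 was above background in the CPE, and the sign of the ratio changed under several settings. Vipr2, the VPAC2 receptor, had 2 probes on chromosome 12. The probe on its RefSeq transcript (chr12:116585297-116585356) had CPE intensities of 86.1, 82.0 and 330 over background levels of 79.5, 80.0 and 351, well above background in no mouse. In the reference it passed on all arrays, with 158, 156 and 267. The ratios of -0.41, -0.31 and -0.61 had an adjusted p of 0.0549 and were not called. The CPE channel gives only an upper bound of its level here, and without background correction the ratio was -0.28. The other Vipr2 probe (chr12:116581700-116581759) had a ratio of -0.20 ± 0.17 (adjusted p = 0.376).

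**Figure D4:**
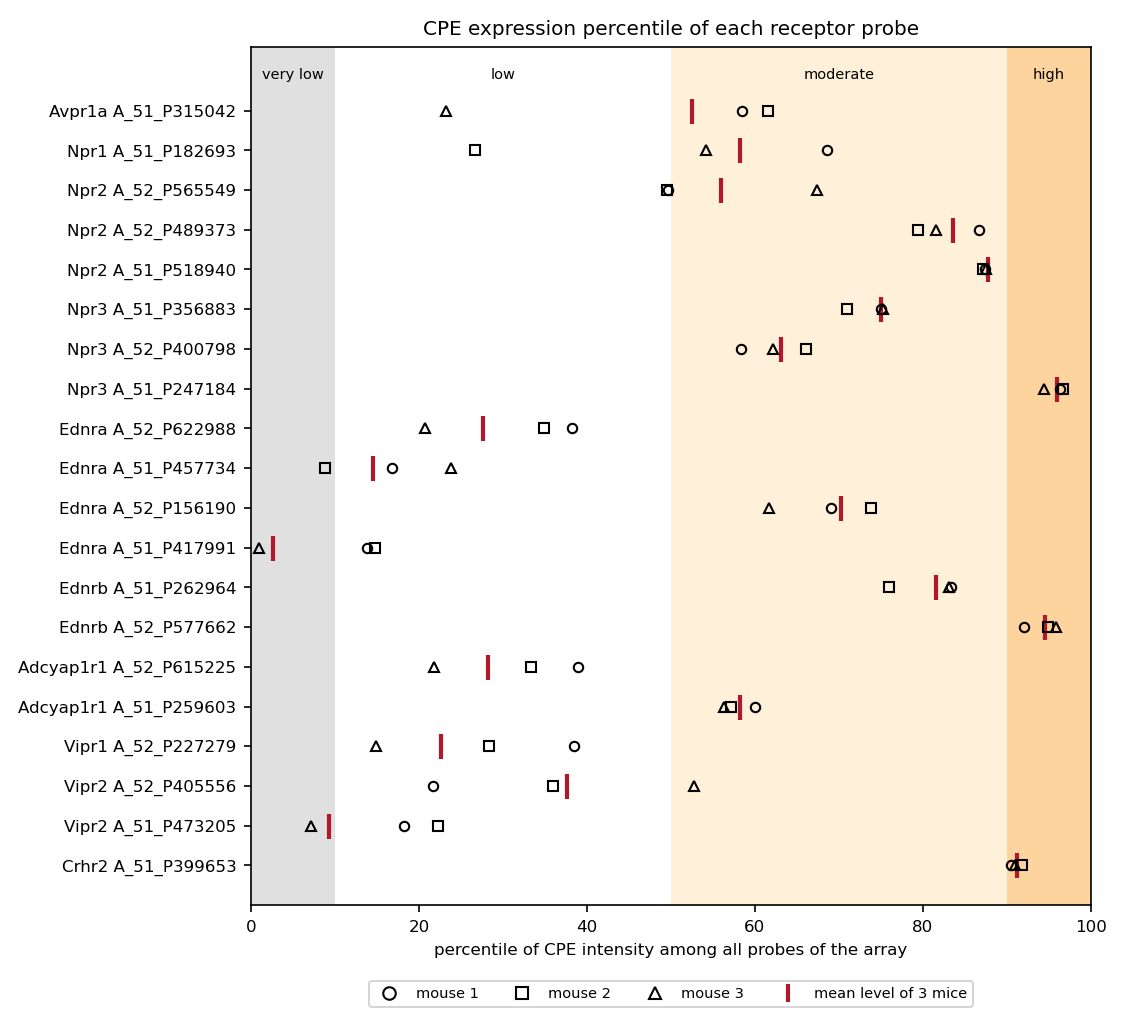
Percentile of the CPE intensity among all probes (horizontal axis) for each receptor probe. Open symbols are the 3 mice and the red tick is the percentile of the mean level. Bands mark the high (above 90), moderate (50 to 90), low (10 to 50) and very low (below 10) classes. Npr3, Ednrb and Crhr2 each have a probe with all mice in the high class.

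By the percentile classes of the study, 3 receptor probes were high in the CPE (Npr3, Ednrb and Crhr2), 10 were moderate, 5 were low and 2 were very low. Classes of different probes do not order the transcripts by abundance, since probes differ in hybridisation. Within a gene the classes were split, as Ednra had probes in the moderate, low and very low classes, and Npr3 had 1 high and 2 moderate probes. The low and very low probes lay near background and their ranks differed between mice. On the array of mouse 3 the Vipr2 RefSeq probe was at percentile 7.18, whereas it was at 18.2 and 22.3 for mice 1 and 2. When only probes well above background in the CPE on all arrays were ranked, 11 receptor probes remained, of which 1 was high (Npr3, at percentile 91.1) and 5 were moderate. Crhr2 and the 3′ Ednrb probe were then at percentiles 80.5 and 87.8.

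With each gene represented by its brightest probe over the 2 channels, 9 of the 10 receptors were tested. Of these 2 were higher and 0 were lower, against 19.1% called in either direction among all 18098 genes tested in this way (1448 higher and 2012 lower). At an unadjusted p under 0.05 in limma, 4 were higher and 2 were lower. The share of all genes at this looser threshold is not given here, so these counts cannot be read as an excess. The brightest Ednrb probe was the 3′ one, which was not called. The Ednrb call was thus made on 1 of its 2 probes only.

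The genes around the receptors were taken from 7 lists, of which 90 genes were on the array and 67 were tested with 1 probe each. A total of 21 (31.3%) were called, 7 higher and 14 lower, against the 19.1% of all genes given above. Over all 18098 genes tested in this way, 1448 were higher and 2012 were lower. The lists were chosen with earlier results of these data known, so their share cannot be read as an excess.

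Of the ligands, Sct, the peptide secretin, was the only one called. Its log2 ratios were 2.15, 2.70 and 0.25, with a mean of 1.70 ± 0.41 (SE, n = 3; adjusted p = 0.0140). Mice 1 and 2 were far above mouse 3, and the call was lost with the log ratio of the scanner software and in the test against 2-fold. The receptor of secretin, Sctr, was not tested and lay at percentile 1.53 in the CPE. The other 6 tested ligands were not called: Oxt had a ratio of 0.25, Edn1 of -0.52, Edn2 of -0.28, Edn3 of -0.21, Adcyap1 of -0.05 and Vip of -0.16. The ligands Avp, Nppa, Nppb, Nppc, Ucn, Ucn2 and Ucn3 were not above background on all arrays in either channel and were not tested. Crh had no probe matched by name and was not analysed here. The median ratio of the tested ligands was -0.16.

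Among 16 related receptors and accessory proteins, 7 were tested and 0 were called in limma, with a median of -0.18. At an unadjusted p under 0.05 in limma, 2 were lower, and the share of all genes at that threshold is not given here. The lowest was Ramp2, which carries the calcitonin receptor-like receptor to the surface, at -0.97 ± 0.16 (adjusted p = 0.00305) and just under 2-fold. It stood at percentile 93.7 in the CPE. The receptor-like partner Calcrl had a ratio of -0.70 ± 0.17 (adjusted p = 0.0153).

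**Figure D5:**
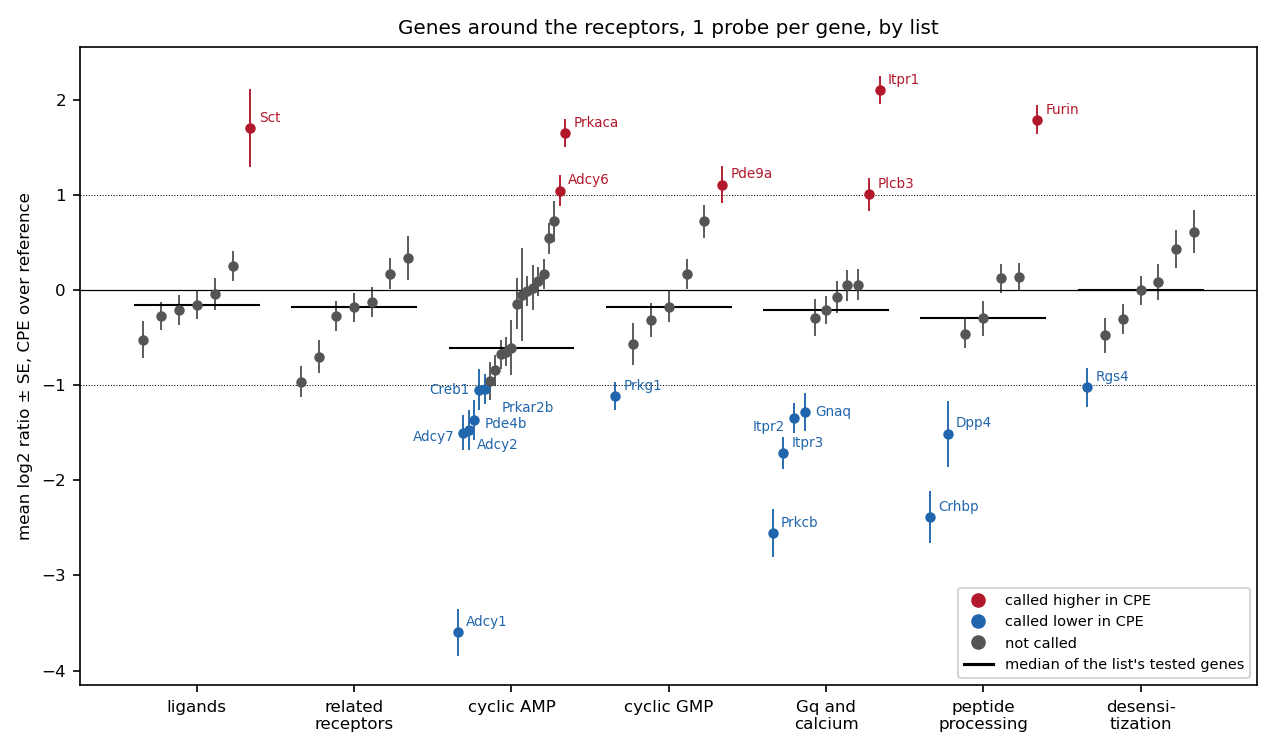
Mean log2 ratio of CPE over reference with the standard error of limma (vertical axis, n = 3 mice) for each tested gene of the 7 lists (horizontal axis). Red and blue points were called higher and lower in the CPE, grey points were not called, and black lines are list medians. Itpr1 is the highest point at 2.10 and Adcy1 the lowest at -3.60.

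The cyclic AMP list held 24 genes, of which 21 were tested, 2 were higher and 6 were lower. Prkaca, a catalytic subunit of protein kinase A, had ratios of 1.67, 1.69 and 1.58 (mean 1.65 ± 0.15; adjusted p = 0.000169) and was at percentile 97.3. Adcy6, an adenylyl cyclase, had a mean of 1.04 ± 0.16 and was at 90.6. The lower genes were Adcy1 (-3.60), Adcy7 (-1.50), Adcy2 (-1.47), the phosphodiesterase Pde4b (-1.37), the transcription factor Creb1 (-1.05) and the regulatory subunit Prkar2b (-1.04). The adenylyl cyclases thus differed among themselves: 1 was higher and 3 were lower in the CPE. Gnas, the gene of the Gs alpha subunit, was at percentile 98.7 in the CPE, with a ratio of -0.05 ± 0.49 that was not called (adjusted p = 0.948). Its ratios of 0.62, -1.84 and 1.07 in mice 1, 2 and 3 had no shared direction. The median of the list was -0.61 after loess and 0.05 after median centring, where 2 genes were higher and 3 lower, so the direction of the list as a whole was not kept. After loess the list medians of mice 1, 2 and 3 were -0.03, -0.79 and -0.23, so mouse 2 was the lowest.

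Of 9 genes of the cyclic GMP list, 7 were tested. The cyclic GMP phosphodiesterase Pde9a was higher (1.35, 1.36 and 0.61; mean 1.11 ± 0.20; adjusted p = 0.00382) and the kinase Prkg1 was lower (-1.09, -1.13 and -1.14; mean -1.12 ± 0.15; adjusted p = 0.00104). The mice were close for Prkg1, while mouse 3 was lower for Pde9a. Without mouse 1 or without mouse 2, Pde9a was no longer called, and Prkg1 was not called with median centring.

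On the Gq and calcium side, 11 of 12 genes were tested, with 2 higher and 4 lower. Itpr1, a calcium channel of the endoplasmic reticulum opened by inositol trisphosphate, had ratios of 2.03, 2.19 and 2.08 (mean 2.10 ± 0.15; adjusted p = 5.95e-05) and stood at percentile 99.4. Its relatives went the other way, with Itpr2 at -1.35 and Itpr3 at -1.72. Plcb3, a phospholipase C, was just past the limit at 1.00 ± 0.18. The kinase Prkcb (-2.55) and the G protein subunit Gnaq (-1.28) were lower. Gna11, the close relative of Gnaq, was not called and was at percentile 93.1.

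Of 8 genes that make, bind or break down the peptides, 7 were tested. Furin, a protease that cuts hormone precursors, was higher (1.89, 1.65 and 1.83; mean 1.79 ± 0.15; adjusted p = 0.00013), at percentile 97.9. Crhbp, which binds some but not all ligands of Crhr2, was lower at -2.39 ± 0.28 (adjusted p = 0.000551 in limma). The peptidase Dpp4 was lower as well, at -1.51 ± 0.35 (adjusted p = 0.0117). The neprilysin gene Mme, whose enzyme degrades natriuretic peptides, had a ratio of 0.12 and was not called. Of 7 genes that switch receptors off, 7 were tested and 1 was called, Rgs4 at -1.03 ± 0.21. The median of that list was -0.01.

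Of the 21 called genes of these lists, 7 were called in the same direction under every alternative run: Adcy1, Prkaca, Itpr1, Itpr3, Prkcb, Furin and Crhbp. The other 14 were not called in the test against 2-fold, and for Adcy2, Adcy7 and Dpp4 this was the only alternative that lost the call. Without background correction, 6 were not called: Adcy6, Prkar2b, Prkg1, Pde9a, Plcb3 and Rgs4. With median centring, Prkar2b, Creb1, Pde4b, Prkg1, Gnaq, Itpr2 and Rgs4 were not called. Adcy6, Prkar2b and Plcb3 were not called without mouse 1, Creb1 was not called without mouse 2, and Rgs4 was not called without either of them.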

How the data were processed

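Agilent 2-colour scanner tables of the CPE of 3 mice were used. Per the file headers, the authors had made them with Agilent Feature Extraction 9.5.3.1. The deposited tables hold mean and background intensity per spot in each channel, flags for outlier, saturated and well-above-background spots, and a log10 ratio of processed red over green. A deposited table of the series holds log2 levels of the CPE channel, normalized by the authors with Aquantile (limma, R 2.14.0), and was an alternative. Coordinates are mm8, as in the scanner files; exons, introns and UTRs were not annotated here.

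From these, R 4.3.3 and limma 3.58.1 were used. Intensities were corrected with normexp (local background, offset 50) and normalized by loess within each array. Control and outlier spots had no weight, and spots of 1 probe were averaged. A probe entered the limma test if at least 1 channel passed background on every array. The model had an intercept alone, and p-values were adjusted by Benjamini-Hochberg over all tested probes. A call required an adjusted p under 0.05 and at least a 2-fold change. Percentiles used the log2 mean red intensity without background correction, after Aquantile, averaged over mice and ranked over all probes, with limits at 90, 50 and 10. For lists, the brightest probe of a gene was used.

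All member probes were described. The naming rule covered every member probe, every ligand, up to 4 called genes in each direction per other list, and the highest and lowest gene of each marker list, of which only those beside a receptor result are printed. The other called and uncalled genes named were chosen after their values were seen. The members and lists were chosen with earlier results of these data known. The fit was tested on simulated data. The number of arrays, 3, limits the precision.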

Additional observations from a re-analysis of the deposited data

How the results depend on the processing

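Of the ratios of the 16 tested receptor probes under the alternatives, 153 kept their direction and their side of the threshold, 9 passed it in addition, 3 no longer passed it and 5 turned direction. Median centring of each array gave 4 higher receptor probes and 0 lower ones. In addition to Crhr2 and the 3′-most Npr3 probe, the middle and 3′-most Npr2 probes were then called, and the 5′ Ednrb probe was lost. The log2 ratio of the 3′ Ednrb probe turned to 0.0403 there. The Vipr1 ratio turned to -0.0696 with median centring, -0.20 with the log ratio of the scanner software, -0.00625 with its background surface (an alternative chosen after seeing the data) and -0.0021 without mouse 1 (leaving out each mouse gave up to 0.298), all with its CPE signal near background. The log ratio of the scanner software called 7 receptor probes, 4 higher and 3 lower, with Avpr1a (1.23), the middle Npr3 probe (1.41), the brightest Ednra probe (-1.08) and the RefSeq probe of Vipr2 (-1.89) added. A test against 2-fold called 1 higher and 0 lower. With array weights, the middle Npr3 probe was also called (1.00). Leaving out each mouse gave 3 to 5 called receptor probes, 2 to 3 higher and 1 to 2 lower: without mouse 2, Npr1 (1.58, not tested with all mice and not among the 9 above) and the same Ednra probe (-1.05) were added, and without mouse 3, the middle Npr3 probe (1.20). The arrays of mice 1 and 3 were scanned on 1 day and that of mouse 2 on another. The log2 ratio without mouse 2 was 1.78 for Crhr2, 1.67 for the 3′-most Npr3 probe and -1.31 for the 5′ Ednrb probe, all called. The 3′-most Npr3 probe was called under all 11 alternatives, with a ratio of 1.67 to 2.42. Ranking over probes above background in the CPE left 1 receptor probe in the high class and 5 in the moderate class. Leaving out each mouse left 3 in the high class and 8 to 9 in the moderate class. Over all probes, the count of calls was 4462, and it was 6761 with the log ratio of the scanner software and 1413 against 2-fold. Median centring raised the share of higher calls from 41.1% to 67.0%, and the median ratio from -0.04 to 0.09. Genes of the lists past the threshold numbered 17 to 24 when each mouse was left out. The cause of these changes was not tested. The CPE and the reference were paired within each array, and limma tested these ratios. No comparison between groups of mice was possible because the 3 arrays form 1 group. Signal over background limits the dim probes of Npr1, Ednra, Adcyap1r1, Vipr1 and Vipr2.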
